A study of Mus musculus with 5 samples.

Results

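Cells that carried Sox2 and Atoh1 together were examined in single-cell RNA sequencing of the developing mouse cerebellum, from a series on the rhombic lip origin of Group 3 and Group 4 medulloblastoma. Transition cells were taken as the cells of the 4 RL libraries with a natural log value of at least 1.0 for both genes, on the scale ln(1 + UMIs per 10000 UMIs of the cell). A UMI (unique molecular identifier) counts 1 captured RNA molecule. The rule took 391 of the 4311 cells of the 4 RL libraries, and of 6987 cells in the whole table. They were set beside 993 cells with Sox2 at 1.0 or more and Atoh1 at 0, called before cells, and 678 cells with Atoh1 at 1.0 or more and Sox2 at 0, called after cells. All 3 classes were chosen by the measured values of Sox2 and Atoh1, so the levels of these genes are a description. The names before, transition and after are working names for positions on the 2 genes. No time order was measured. A further 2676 cells carried a library name that matched no title and were not used here.

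The 4 RL libraries came from cerebellum, 2 titled e14 and 2 titled e13 (embryonic days 14 and 13). RL e13 replicate 2 carries the age tag e14 against its title. All 4 titles hold the letters UT, which the labels do not spell out, and the labels give no strain, genotype, treatment or number of embryos. Whether the libraries of an age are separate litters, embryos or runs of 1 sample is not stated. The p-values therefore reflect variation among 4 libraries that may be technical.

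The rhombic lip is the dorsal germinal zone at the edge of the cerebellar plate, and its progenitors produce the glutamatergic neurons of the cerebellum. Sox2 is a transcription factor of neural stem cells and radial glia, and Atoh1 is the proneural factor that commits rhombic lip cells to glutamatergic fates, granule cell progenitors among them. Neural progenitors are known to choose between staying and leaving through Notch signalling. A differentiating cell presents the ligand Dll1, neighbours that receive it through Notch receptors transcribe Hes1 and Hes5, and these repressors keep proneural genes low.

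Expression is given as the mean over cells of a class in a library in CPM (UMIs of a cell multiplied up to a total of 1000000). Differences are on the log2(CPM + 5) scale, which understates changes of low genes, and were tested with limma with the library as a block and Benjamini-Hochberg adjustment over all genes. Sox2 and Atoh1 were left out of every test, since the rule used them. In the order RL e14 replicates 1 and 2, then RL e13 replicates 1 and 2, kept from here on, transition cells had Sox2 at 322, 388, 394 and 324 CPM and Atoh1 at 541, 543, 481 and 518 CPM. Before cells had Sox2 at 569 ± 52.1 CPM and after cells Atoh1 at 473 ± 96.0 CPM (SD, n = 4 libraries). Genes that follow Sox2 or Atoh1 from cell to cell differ between classes sorted on these genes, so the counts of calls describe how far the classes lie apart. Against before cells, 367 genes were higher (4.37%) and 623 lower (7.42%) in transition cells, in all 11.8% of 8394 genes tested. Against after cells, 272 were higher (3.3%) and 285 lower (3.46%), in all 6.77% of 8231. The 4 transition profiles did not overlap the 4 profiles of the other class in 12.1% and 10.3% of genes. The median difference over all genes tested was -0.03 and 0.04.

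Among the cells of the e14 libraries, 10.0% in replicate 1 (95% Wilson interval 8.36 to 12, 105 cells) and 6.21% in replicate 2 (4.69 to 8.18, 46 cells) were transition cells. At e13 the share was 12% in replicate 1 (9.84 to 14.6, 85 cells) and 8.53% in replicate 2 (7.33 to 9.90, 155 cells). Intervals on shares cover counting error only. By title the shares averaged 8.12% ± 2.71 for e14 libraries and 10.3% ± 2.49 for e13 libraries (SD, n = 2 libraries each, exact two-sided permutation p = 0.667, where the design cannot go under 0.33). The rule cuts through a continuum: 172 of the 391 cells had Sox2 or Atoh1 under 1.2. The values nearest the line were 1.002 for Sox2 and 1.0004 for Atoh1 on the inside and 0.998 and 0.999 on the outside. In all, 851 Atoh1-high cells had Sox2 above 0 and under 1.0, and 267 Sox2-high cells had Atoh1 above 0 and under 1.0. Median depth was 17495 UMIs in transition, 15833 in before and 17897.5 in after cells, with 4562, 4464 and 4483.5 genes detected. Depth was less alike within some libraries. The medians in the same class order were 21921, 14899 and 20558 UMIs in RL e14 replicate 2 and 18785, 17552 and 24061 in RL e13 replicate 1. Transition cells were 3.07% in the top 5% of UMIs of their library, against 3.02% of before and 2.51% of after cells. No doublet caller was run. Over all cells deposited, 6 barcodes occurred in 2 libraries, and 2 transition cells carried one of them.

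**Figure D1:**
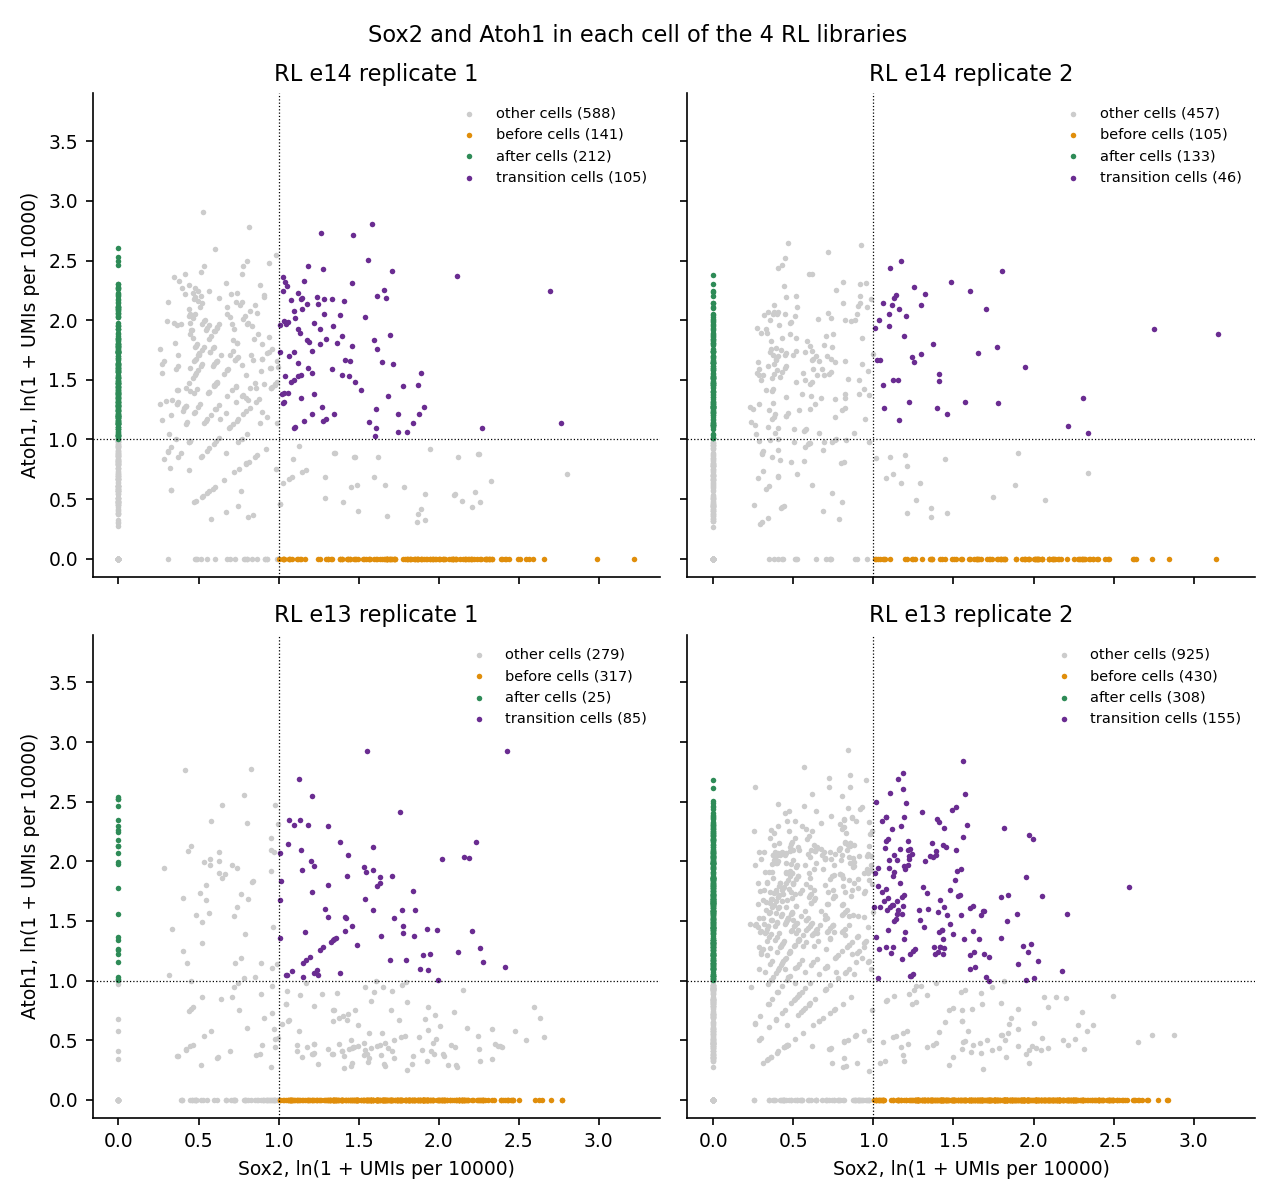
Sox2 (x axis) against Atoh1 (y axis) in each cell of the 4 RL libraries, both as ln(1 + UMIs per 10000), with dotted lines at 1.0. Transition cells (purple) lie in the upper right field, 105, 46, 85 and 155 in the 4 panels, before cells (orange) on the lower axis and after cells (green) on the left axis, where RL e13 replicate 1 has 25.

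RL e13 replicate 1 stood apart from the other 3 libraries. Before cells made up 44.9% and after cells 3.54% (25 cells) of it, against 13.5 to 23.7% and 16.9 to 20.3% elsewhere. Its transition cells had Barhl1, a homeobox gene of granule cell progenitors, at 30.1 CPM, and the other 3 libraries had 231 to 333. Insm1, a zinc finger gene of progenitors that leave the ventricular surface, stood at 36.8 CPM there and at 373 to 535 elsewhere. The opposite held for the rhombic lip genes Olig3 (172 CPM against 16.1 to 44.9) and Wls (306 against 84.4 to 176), and for the BMP-induced gene Id1 (1057 against 124 to 195). Several list counts and single results are therefore also given without this library. Over all genes, that fit had 627 higher and 1003 lower of 8365 tested against before cells. Against after cells it had 662 higher and 519 lower of 8166. List counts without this library are to be read beside these, which exceed the counts with all libraries.

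Marker genes of other cell types were low in transition cells. Summed over each list, roof plate and choroid plexus markers reached 7.48 to 11.5 CPM over the 4 libraries (5 of 8 listed genes in the table, Cldn1 at 0 in all). Oligodendrocyte lineage markers reached 5.34 to 9.19 CPM (4 of 5 genes), microglia 0.821 to 4.69 (5 of 5) and endothelium 1.69 to 13.7 (3 of 5). Meninges markers reached 0.375 to 4.42 (4 of 5, Foxc1 at 0 in all) and red blood cell markers 5.64 to 38.5 (4 of 5). GABAergic lineage markers (9 of 10 genes) summed to 62.7 to 87.5 CPM in transition cells, to 148 to 430 in before cells and to 23.7 to 74.6 in after cells. Their defining gene Ptf1a stood at 0 to 5.68 CPM in transition and 14.9 to 71.9 CPM in before cells, and the part of this lineage in the differences from before cells was not tested.

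A small set of genes stood above or below both neighbours in transition cells. Of 7981 genes tested in both comparisons, 14 were higher in transition cells than in both neighbours (0.175%) and 11 were lower than in both (0.138%). The Notch ligand gene Dll1 and the stress-responsive growth arrest gene Gadd45g led the higher set. To show the DNA next to these starts, and next to that of the Notch target gene Hes5, the 250 bases before a RefSeq transcription start are printed 5′ to 3′ on the strand of the gene (GRCm38.p6), with motif matches in capitals. Capitals mark CAGCTG, a 6-base E-box of the kind that basic helix-loop-helix factors such as Atoh1 bind, in Gadd45g (chr13:51846425-51846674, + strand) and Dll1 (chr17:15376933-15377182, - strand, the second of 2 starts listed). In Hes5 (chr4:154960673-154960922, + strand) they mark TGGGAA, the core bound by the Notch effector RBPJ, or TTCCCA, its other strand.
Gadd45g: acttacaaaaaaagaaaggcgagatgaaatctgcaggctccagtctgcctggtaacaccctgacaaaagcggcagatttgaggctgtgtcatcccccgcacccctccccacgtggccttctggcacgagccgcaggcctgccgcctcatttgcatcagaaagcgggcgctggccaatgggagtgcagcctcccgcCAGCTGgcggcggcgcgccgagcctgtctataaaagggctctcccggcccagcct
Dll1: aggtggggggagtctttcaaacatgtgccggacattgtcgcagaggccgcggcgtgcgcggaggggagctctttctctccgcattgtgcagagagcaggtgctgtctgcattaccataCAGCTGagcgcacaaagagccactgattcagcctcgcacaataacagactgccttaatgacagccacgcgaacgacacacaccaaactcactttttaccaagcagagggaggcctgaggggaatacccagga
Hes5: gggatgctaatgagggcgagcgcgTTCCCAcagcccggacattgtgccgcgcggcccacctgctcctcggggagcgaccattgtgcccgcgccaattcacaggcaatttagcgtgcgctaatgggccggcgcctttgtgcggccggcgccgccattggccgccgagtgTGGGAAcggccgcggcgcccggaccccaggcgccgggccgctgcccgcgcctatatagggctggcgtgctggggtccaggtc
Gadd45g and the second Dll1 window each hold 1 CAGCTG, the other Dll1 window holds 0, and the Hes5 window holds 2 matches to TGGGAA. Over all 32851 windows of this length, 13% hold CAGCTG, 14.4% hold CAGATG and 21.6% hold TGGGAA on either strand. Of the 14 genes above both neighbours 12 matched the promoter table with 17 windows, of which 5 hold CAGCTG (29.4%), 4 hold CAGATG (23.5%) and 3 hold TGGGAA (17.6%). Of the 11 genes below both, 8 matched with 11 windows, and CAGCTG and CAGATG are each in 1 and TGGGAA in 3. A match is a description of these letters and not evidence of binding.

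Dll1 stood at 50.7, 64.7, 112 and 103 CPM in transition cells of RL e14 replicates 1 and 2 and RL e13 replicates 1 and 2. Before cells had 8.03, 12.1, 18.4 and 8.14 CPM and after cells 13.5, 26.4, 39.6 and 38.1 CPM in the same order. All 4 transition values lay above all 8 values of the neighbours. The difference was 2.37 ± 0.18 (SE) from before cells (limma adjusted p = 0.000991) and 1.37 ± 0.12 from after cells (limma adjusted p = 0.000630), and Dll1 passed both tests in all 15 alternatives run. With each cell thinned to 8000 UMIs, Dll1 had a UMI in 36.3% of 383 transition cells (31.6 to 41.2), against 7.53% of 943 before cells (6.01 to 9.39) and 13.9% of 664 after cells (11.4 to 16.7). Unthinned, the shares were 51.9%, 10.7% and 22.7%. Thinning left out 8 transition, 50 before and 14 after cells with fewer UMIs.

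Gadd45g stood at 959, 1061, 450 and 1150 CPM in transition cells in the same library order, at 79.3, 196, 91.2 and 85.1 in before cells and at 324, 352, 473 and 549 in after cells. In RL e13 replicate 1 the transition value was below the after value, and in the other 3 libraries it was more than any value of either neighbour. The difference from before cells was 2.96 ± 0.24 (limma adjusted p = 0.00123), which passed in all alternatives. From after cells it was 1.03 ± 0.24 (limma adjusted p = 0.0477), and it ended in 9 of 14 alternatives. Among these, it was 0.85 without RL e14 replicate 1 (limma adjusted p = 0.166), 0.85 without RL e14 replicate 2 (adjusted p = 0.227) and 1.02 without RL e13 replicate 2 (adjusted p = 0.169). It was 1.40 without RL e13 replicate 1 (limma adjusted p = 2.42e-08).

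Other genes above both neighbours differed less from before cells than Dll1 and Gadd45g. Lrp8, a receptor for reelin, stood at 48.0, 40.4, 118 and 73.6 CPM in transition cells in the same library order. Its values were 34.2, 18.1, 62.1 and 32.0 in before cells and 9.56, 16.1, 25 and 19.8 in after cells, so that it was higher than both in each library while the before range reached into the transition range. The differences were 0.84 ± 0.13 (limma adjusted p = 0.00833) and 1.67 ± 0.17 (limma adjusted p = 0.00140). The fibroblast growth factor receptor gene Fgfr2 stood at 60.7 ± 5.91 CPM (SD, n = 4 libraries) against 35.0 ± 7.69 in before and 32.8 ± 4.56 in after cells, with no overlap. Epha3, an ephrin receptor gene, stood at 135 ± 28.2 CPM against 61.3 ± 33.7 and 94.0 ± 21.1, higher in 4 of 4 libraries in both comparisons. Klf4, a zinc finger gene known for pluripotency and for slowing division, stood at 136 ± 25.8 CPM against 87.5 ± 22.2 and 77.8 ± 26.0. The rest of the set were Hmcn1, Txlnb, Nlgn1, Kcnq3, Magi1, Brd7, Znrf2 and Pnrc2, with differences of 0.33 to 0.98 from before and 0.42 to 1.38 from after cells. Besides Dll1, passing both tests in 15 alternatives, the counts were 12 for Hmcn1 and Lrp8, 11 for Txlnb, 10 for Fgfr2, 9 for Epha3 and 4 to 8 for the others. Lrp8 was lost without RL e13 replicate 2 (limma adjusted p = 0.0682 against before cells) and Fgfr2 without RL e14 replicate 1 (limma adjusted p = 0.0554 against after cells), without RL e14 replicate 2 (0.0508) and without RL e13 replicate 2 (0.0589 against before cells).

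The set grew without RL e13 replicate 1 to 117 genes above and 51 below both neighbours, in a fit with more calls against each neighbour. Of the sets over 4 libraries, 13 of the 14 and all 11 genes were among them. Pvalb, which encodes the calcium buffer parvalbumin, then led the higher set. Transition cells had 951, 1291 and 718 CPM of it in RL e14 replicates 1 and 2 and RL e13 replicate 2, and 22.3 in RL e13 replicate 1. After cells had 237 and 450 CPM at e14 and 230 and 431 CPM in RL e13 replicates 1 and 2. The difference from after cells was 0.28 ± 0.72 over 4 libraries (limma adjusted p = 0.872) and 1.41 without RL e13 replicate 1 (limma adjusted p = 9.97e-06). Others above both without that library, named here after their values were seen, were the chromatin remodeller gene Chd3 (265 CPM against 117 in before and 146 in after cells) and Fst, which encodes the activin and BMP antagonist follistatin (294 against 13.6 and 176).

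The lower set included Ptn, which encodes the secreted growth factor pleiotrophin. It stood at 1056, 1242, 925 and 1206 CPM in transition cells of RL e14 replicates 1 and 2 and RL e13 replicates 1 and 2. Before cells had 2886, 3914, 1858 and 2823 CPM and after cells 2758, 2491, 2576 and 2933 CPM, so that neither range overlapped that of the transition cells. The differences were -1.33 ± 0.10 (limma adjusted p = 0.000991) and -1.28 ± 0.08 (limma adjusted p = 0.000144), passing in all 15 alternatives. Adamts1, a secreted protease gene, stood at 11 ± 6.46 CPM against 53.7 ± 32.2 and 35.7 ± 12.4, and the tetraspanin gene Cd9 at 45.1 ± 20.2 against 111 ± 61.1 and 99.1 ± 40.4, both lower in 4 of 4 libraries in both comparisons. Gria2, an AMPA receptor subunit gene, stood at 114 ± 27.5 CPM against 200 ± 72.5 and 267 ± 103. The tubulin genes Tuba1a and Tubb5, with Rtn1, Rorb, Col9a3 and Ccdc28b, were also in the set, each passing in 7 to 11 alternatives. Adamts1 passed in 13, and Cd9 and Gria2 in 12.

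**Figure D2:**
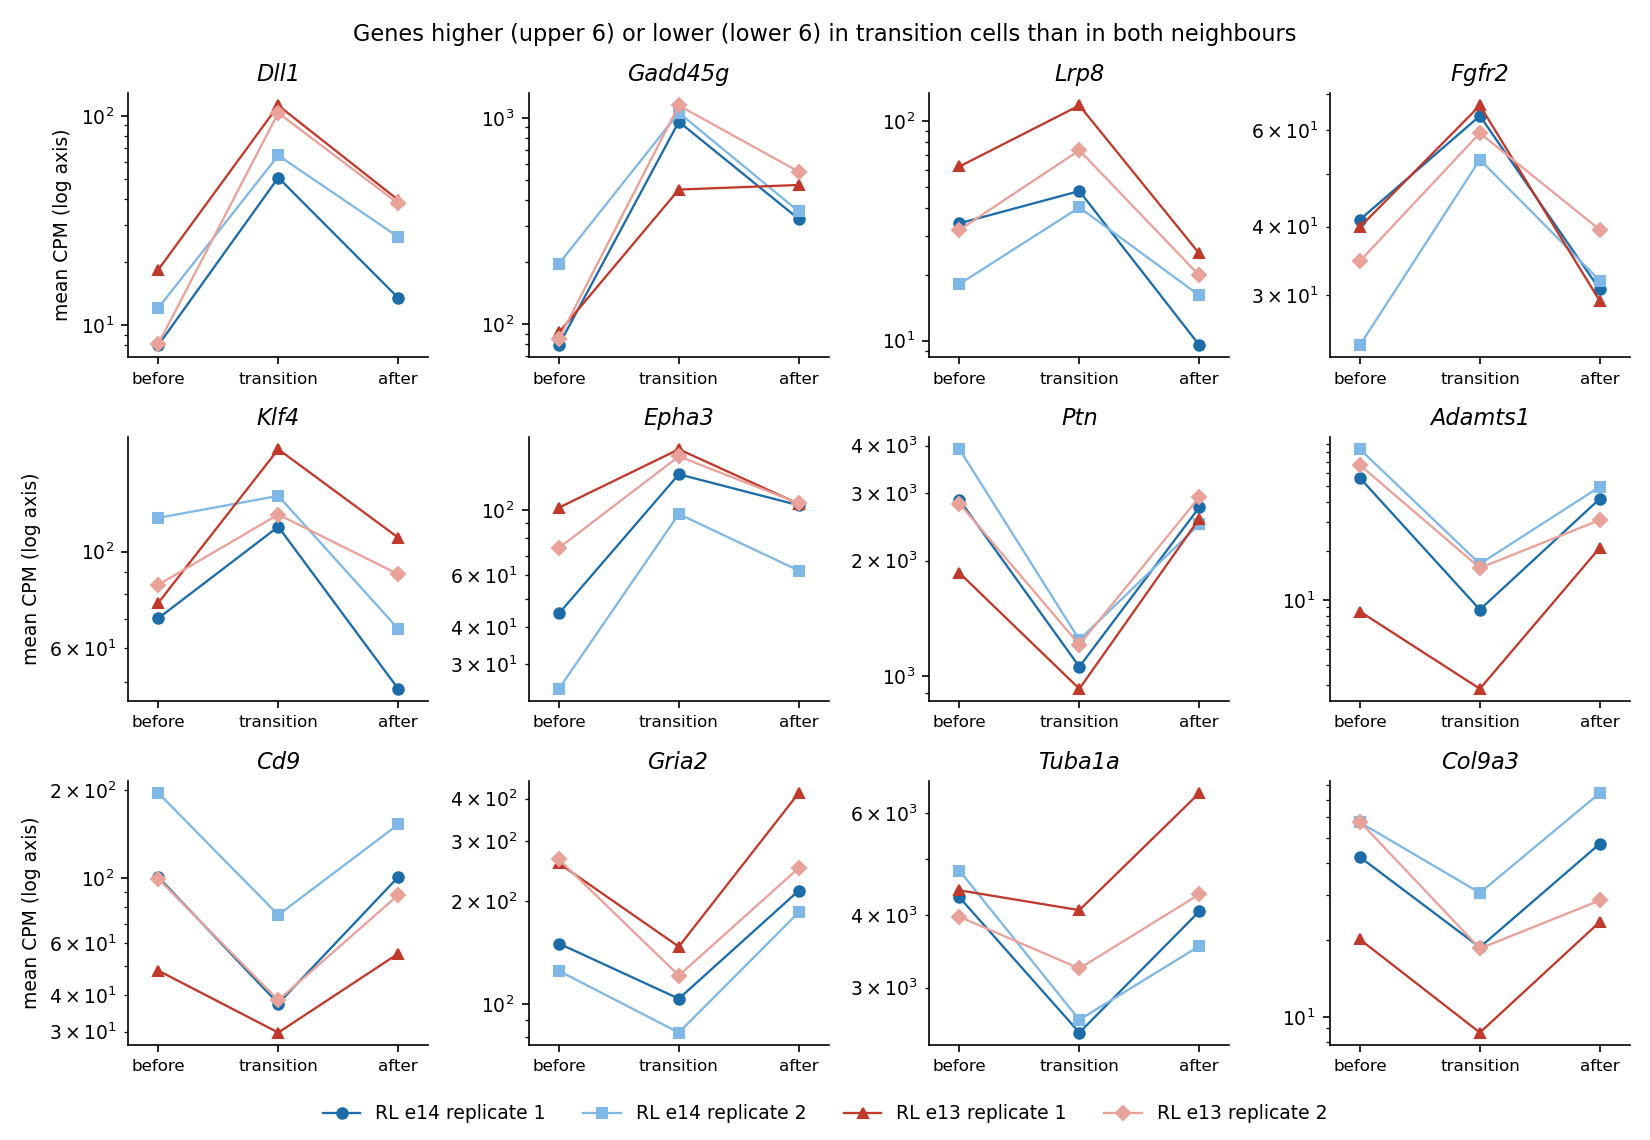
Mean CPM (y axis, log scale, a separate range in each panel) of 6 genes higher and 6 genes lower in transition cells than in both neighbours, with 1 line for each of the 4 libraries and 1 point for each class. Dll1 has a peak and Ptn a trough in all 4 libraries, and Gadd45g has no peak in RL e13 replicate 1, with 450 CPM in transition and 473 in after cells.

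Measured against the mean of both neighbours on the linear scale, 39 genes were higher (0.464%) and 143 lower (1.7%) in transition cells, in all 2.17% of 8405 genes tested. Dll1 and Gadd45g were in the higher part, with 82.7 ± 29.7 and 905 ± 313 CPM. Gap43, a growth cone gene, was in the lower part. In this comparison 1 of 10 named genes passed in all alternatives, Dll1.

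Notch receptor genes were intermediate. Notch1 stood at 59.2, 67.2, 139 and 69.7 CPM in transition cells of RL e14 replicates 1 and 2 and RL e13 replicates 1 and 2, at 169, 250, 190 and 180 in before cells and at 19.1, 21.2, 15.9 and 19.7 in after cells, with no overlap. RL e13 replicate 1 had the highest transition value. All 3 receptor genes tested (Notch1, Notch2, Notch3) were lower than in before cells, with a median of -1.25, and all 3 were higher than in after cells, with a median of 1.36. The Notch1 difference of -1.25 ± 0.20 (limma adjusted p = 0.00888) was lost without RL e14 replicate 1 (-1.19, adjusted p = 0.0653) and without RL e13 replicate 2 (-1.23, adjusted p = 0.0551). Both Notch2 and Notch3 were lost against before cells when either e14 library or RL e13 replicate 2 was left out, with limma adjusted p from 0.0877 to 0.185. Notch3 was also lost against after cells there (0.0593 to 0.135). From after cells Notch1 differed by 1.82 ± 0.23 (limma adjusted p = 0.00396) in every alternative. Among the ligands, Jag1 stood at 19.7 CPM on average, Dll3 at 14.2 or 18.1 in 2 libraries and 2.11 or 9.46 in the other two. Jag1 passed against after cells (0.80 ± 0.16, limma adjusted p = 0.0268), a call that was lost without the library block and without RL e14 replicate 1 (0.0804), RL e14 replicate 2 (0.128) or RL e13 replicate 2 (0.122). Dll3 did not pass against after cells (-1.46 ± 0.39, limma adjusted p = 0.0682), where it stood at 25.1 to 55.1 CPM. Without RL e13 replicate 1 Dll3 was lower than in after cells (-0.92, limma adjusted p = 0.00423). Of 3 ligand genes tested in that fit, 2 were higher and 1 lower than in after cells.

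Notch targets went separate ways. Hes5 stood at 66.1, 139, 280 and 189 CPM in transition cells, at 534 to 746 CPM in before cells and at 6.85 to 18.9 CPM in after cells, with no overlap. The differences were -2.02 ± 0.29 (limma adjusted p = 0.00643) and 3.15 ± 0.24 (limma adjusted p = 0.000400), passing in all alternatives. Hes1 was lower than in before cells (-1.19 ± 0.26) and higher than in after cells (2.32 ± 0.20). The first of these was lost without RL e14 replicate 1 (limma adjusted p = 0.134), without RL e14 replicate 2 (0.0787) and without RL e13 replicate 2 (0.141). Hes6, which encodes an antagonist of Hes1 and is itself induced by proneural factors, stood at 1485, 1458, 710 and 1338 CPM in transition cells, at 182 to 244 CPM in before cells and at 1264 to 1354 CPM in after cells. It was higher than in before cells (2.50 ± 0.16, limma adjusted p = 0.000991) and did not pass against after cells (-0.12 ± 0.17). The sign of the second turned without RL e13 replicate 1 (0.14, limma adjusted p = 0.0371). Of 10 targets and modulators tested against before cells, 3 were higher (Hes6, the fringe gene Mfng and the Numb paralog Numbl) and 4 lower (Hes5, Hes1, Nrarp and the fringe gene Lfng), with a median of -0.32. Of 9 tested against after cells, 2 were higher and Numbl lower, with a median of -0.02. The Numbl call against after cells (-0.55, limma adjusted p = 0.0497) was lost without RL e14 replicate 1 (0.0745), RL e14 replicate 2 (0.155) or RL e13 replicate 2 (0.252), and the Lfng call without RL e14 replicate 1 (0.0509). Over the 3 libraries other than RL e13 replicate 1, 4 targets were higher and 4 lower of 10 than in before cells, and 3 higher and 1 lower of 9 than in after cells.

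Proneural and early differentiation genes were higher than in before cells in 8 of 9 cases, and 1 was lower. The median was 1.89. Insm1 stood at 399, 535, 36.8 and 373 CPM in transition cells, at 6.55 to 13.1 CPM in before cells and at 496 to 631 CPM in after cells. The range of transition cells overlapped that of after cells through RL e14 replicate 2. The difference from before cells was 4.16 ± 0.56 (limma adjusted p = 0.00484) and 5.01 without RL e13 replicate 1. The 2 corepressor genes Cbfa2t3 and Cbfa2t2 were higher by 3.58 ± 0.49 and 1.89 ± 0.37 (limma adjusted p = 0.00528 and 0.0195). Neurod2, a basic helix-loop-helix gene of young glutamatergic neurons, stood at 45.7, 41.1, 74.7 and 68.7 CPM, between 0.591 to 4.33 CPM in before and 83.3 to 243 CPM in after cells, with no overlap. It was higher than in before cells (3.06 ± 0.15, limma adjusted p = 0.000393) and lower than in after cells (-1.21 ± 0.13, limma adjusted p = 0.00206). Against after cells 7 of 13 genes of this list were lower, 1 was higher and 5 did not pass, with a median of -1.21. The lower ones included Neurod1 (-2.09 ± 0.21), Neurod6, Nhlh2 and Ebf1, all genes of later neuronal differentiation. Insm1 (-1.22 ± 0.49), Cbfa2t3 (-1.01 ± 0.53), Ebf3 and Cbfa2t2 were among those that did not pass against after cells. The counts without RL e13 replicate 1 were 8 higher and 1 lower of 9 against before cells and 2 and 9 of 13 against after cells, and Insm1 then passed (-0.44, limma adjusted p = 0.000237).

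Granule cell progenitor genes were mixed. Barhl1 stood at 291, 333, 30.1 and 231 CPM in transition cells, at 2.11 to 9.14 CPM in before cells and at 374 to 491 CPM in after cells, with no overlap on either side. It was higher than in before cells by 4.10 ± 0.40 (limma adjusted p = 0.00219) in all alternatives, and the difference from after cells did not pass (-1.43 ± 0.42, limma adjusted p = 0.0966). The latter was -0.77 without RL e13 replicate 1 and passed (limma adjusted p = 5.52e-06). Against before cells 4 of 12 genes were higher (Barhl1, the homeobox gene Uncx, Mfap4 and the growth-promoting gene Mycn) and 3 lower (among them the zinc finger genes Zic1 and Zic4), with a median of 0.18. Against after cells Uncx (-1.75 ± 0.28) and Tlx3 (-2.04 ± 0.39) were lower of 13 tested, with a median of 0.14. Leaving out RL e13 replicate 1 gave 6 higher and 3 lower of 13 against before cells and 4 higher and 3 lower of 13 against after cells. The Tlx3 call was lost without RL e14 replicate 1 (limma adjusted p = 0.0843), RL e14 replicate 2 (0.119) or RL e13 replicate 2 (0.0680). Pax6, a gene of rhombic lip and granule cells, was at 192, 197, 136 and 149 CPM in transition cells, between before (60.0 to 140) and after cells (267 to 350). It was lower than in after cells in all alternatives (-0.90 ± 0.13, limma adjusted p = 0.00765). Its difference from before cells (0.64 ± 0.12, limma adjusted p = 0.0188) was lost without RL e14 replicate 1 (0.0709), RL e14 replicate 2 (0.0528) or RL e13 replicate 2 (0.0826). Otx2, a homeobox gene of the rhombic lip and of medulloblastoma, stood at 106, 89.6, 80.7 and 67.7 CPM and passed neither test (0.77 ± 0.33 and -0.12 ± 0.40). It was lower than in after cells without RL e13 replicate 1 (-0.74, limma adjusted p = 1.56e-05). Eomes, the T-box gene of brush cells and nuclear neurons, was at 1.45, 1.51, 1.52 and 7.35 CPM and lower than in after cells, where it stood at 26.2 to 64.5 CPM (-2.78 ± 0.25, limma adjusted p = 0.000804, in all alternatives). In before cells it was too low to be tested.

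Radial glia genes were lower than in before cells in 18 of 20 cases, with a median of -1.67, while the nuclear factor I gene Nfia was higher (0.40 ± 0.07). Against after cells 11 of 15 were higher and 0 lower, with a median of 0.91. Fabp7, the brain lipid-binding protein gene of radial glia, stood at 383, 527, 1686 and 833 CPM in transition cells, at 4356 to 7148 CPM in before cells and at 131 to 235 CPM in after cells. None of these ranges overlapped, and RL e13 replicate 1 was the highest of the transition values. The difference was -2.91 ± 0.35 from before cells (limma adjusted p = 0.00384) and 1.99 ± 0.35 from after cells (limma adjusted p = 0.0151). The second was lost without RL e14 replicate 2 (2.19, limma adjusted p = 0.0648) or RL e13 replicate 2 (2.06, limma adjusted p = 0.0581). Among the lowest differences from before cells were those of the endothelin receptor gene Ednrb (-3.33 ± 0.30) and Aldh1l1, a folate enzyme gene of astrocytes (-3.27 ± 0.45). The highest from after cells were those of Hes5, Gdf10, which encodes a BMP family ligand (3.07 ± 0.24), Ttyh1 (3.04 ± 0.40) and Sparc, a matrix protein gene (2.94 ± 0.20). Without RL e13 replicate 1, 18 of 20 were again lower than in before cells and 13 of 15 higher than in after cells.

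Of the rhombic lip genes, Olig3 was higher and the Wnt agonist gene Rspo1 lower than in before cells among 7 tested, with a median of -0.70. Olig3, a basic helix-loop-helix gene of the early rhombic lip, stood at 21.6, 16.1, 172 and 44.9 CPM in transition cells and at 4.54, 1.74, 43.0 and 9.88 CPM in before cells. It was higher in each of the 4 libraries while the ranges overlapped (1.69 ± 0.13, limma adjusted p = 0.00100), and the call was lost without the library block (adjusted p = 0.221). Wls, a gene needed for Wnt secretion, stood at 123, 84.4, 306 and 176 CPM in transition cells and 210, 160, 192 and 217 CPM in before cells, a difference that did not pass (-0.32 ± 0.23). Without RL e13 replicate 1 it did (-0.64, limma adjusted p = 0.00514). From after cells Wls was the member that passed of 5 tested (1.37 ± 0.11, limma adjusted p = 0.000416, and 0.121 without the library block). Leaving out RL e13 replicate 1 gave 1 higher and 4 lower of 5 rhombic lip genes against before cells and 2 higher of 3 against after cells.

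Over 4 libraries, neuronal cytoskeleton and migration genes were higher than in before cells and lower than in after cells where they passed. Of 15 tested, 10 were higher than in before cells (median 0.89) and 11 of 15 were lower than in after cells (median -1.46). Gap43 stood at 83.2, 98.6, 36.0 and 119 CPM in transition cells, at 26.6 to 53.2 CPM in before cells and at 725 to 1163 CPM in after cells. It was lower than in after cells by 3.54 ± 0.17 on the log2 scale (a difference of -3.54, limma adjusted p = 7.29e-05) with no overlap. The difference from before cells (0.90 ± 0.19, limma adjusted p = 0.0240) was lost without RL e14 replicate 1 (0.0832), RL e14 replicate 2 (0.0943) or RL e13 replicate 2 (0.108). Igfbpl1 was among the genes with the highest differences from before cells, at 425, 456, 161 and 300 CPM against 9.91 to 28.9 (3.92 ± 0.37, limma adjusted p = 0.00193). Nrn1 and Rnd2 of the same list were also higher than in before cells, by 3.43 and 2.35 without RL e13 replicate 1. Tubb3, a tubulin gene of neurons, stood at 200 CPM on average with a difference of 0.23 ± 0.09 from before cells that did not pass and of -1.78 ± 0.09 from after cells (limma adjusted p = 7.29e-05). Of the epithelial organisation and adhesion genes 7 of 15 were lower than in before cells, led by the cadherin genes Cdh4 (-2.54 ± 0.24) and Cdh11 (-1.77 ± 0.24), and Zeb1, a repressor of epithelial genes, was higher (1.28 ± 0.18). The related gene Zeb2 went the other way without RL e13 replicate 1 (-1.11, limma adjusted p = 0.00022). Against after cells 4 of 14 were higher, among them the junction gene Jam2, and Scrt1, a zinc finger repressor gene of migrating neurons, was lower (-1.71 ± 0.21). The Jam2 calls were lost without RL e14 replicate 2 (limma adjusted p = 0.111 against before and 0.147 against after cells) or RL e13 replicate 2 (0.140 and 0.132), and the first also without RL e14 replicate 1 (0.152). With RL e13 replicate 1 left out, 11 cytoskeleton and migration genes were higher and 1 lower of 15 than in before cells, and 13 of 15 were lower than in after cells. Of the epithelial genes 1 was then higher and 10 lower of 15 than in before cells, and 6 were higher and 2 lower of 14 than in after cells.

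**Figure D3:**
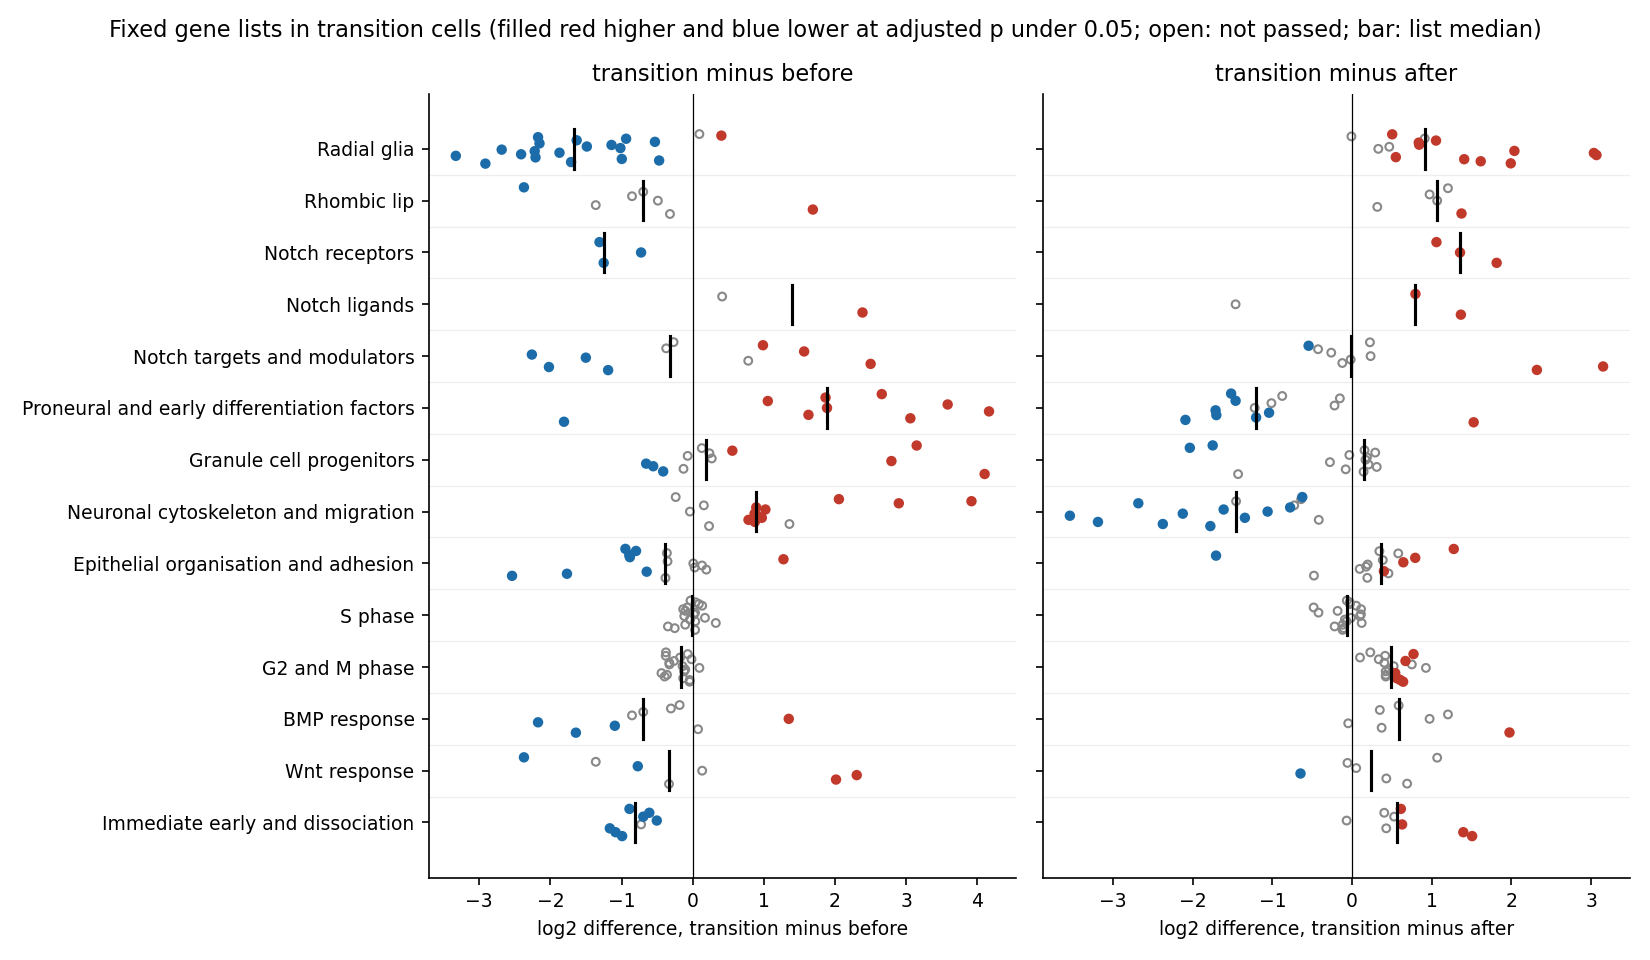
Log2 differences of the tested members of 14 gene lists (rows, 1 point for each gene) between transition cells and before cells (left, x axis) and after cells (right, x axis). Filled red points passed the test as higher and filled blue points as lower, open points did not pass, and a black bar marks the list median, which is -1.67 and 0.91 for radial glia genes and 1.89 and -1.21 for proneural genes.

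Few cell cycle genes passed against before cells. Mki67, a gene of dividing cells, stood at 152, 217, 158 and 179 CPM in transition cells, at 103 to 234 CPM in before cells and at 84.6 to 142 CPM in after cells. Of 18 S phase genes 0 passed in either comparison with limma (1 and 0 at an unadjusted p under 0.05). In the G2 and M phase list 0 of 18 passed against before cells with limma (1 at an unadjusted p under 0.05, median -0.16) and 6 of 18 were higher than in after cells (median 0.49): Mki67, Top2a, Cdk1, Cenpf, Nusap1 and Kif11. Mki67 was higher by 0.64 ± 0.12 (limma adjusted p = 0.0201), and without RL e14 replicate 2 by 0.53 (adjusted p = 0.117). With RL e13 replicate 1 left out, 14 of these 18 were higher than in after cells and 0 passed against before cells, and of the S phase genes 1 of 18 was higher than in before cells and 5 of 18 higher than in after cells. When the rule was applied to cells thinned to 8000 UMIs, the difference from after cells was negative for Mki67, Top2a, Nusap1 and Kif11, with values from -0.40 to -0.20 that did not pass. Values of the other members of the list under that rule are not given here. Cdkn1c, which encodes the cyclin-dependent kinase inhibitor p57, stood at 208, 411, 270 and 272 CPM in transition cells, at 222 to 464 CPM in before cells and at 61.7 to 88.6 CPM in after cells. It was higher than in after cells in all alternatives (1.83 ± 0.15, limma adjusted p = 0.000460), and its difference from before cells did not pass (-0.16 ± 0.16). Of the 12 regulators of cell cycle exit and G1 tested against before cells, Gadd45g and Btg2 were higher and the kinase gene Cdk6 lower (-2.64 ± 0.20). Of 13 tested against after cells, Cdkn1c, Gadd45g and Btg1 were higher and the cyclin gene Ccnd2 lower (-0.997 ± 0.06). Over the other 3 libraries, without RL e13 replicate 1, 5 of these regulators were higher and 2 lower of 13 than in before cells, and 5 higher and 1 lower of 13 than in after cells. The Btg2 call was lost without RL e14 replicate 1 (limma adjusted p = 0.112) or RL e13 replicate 2 (0.114).

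Signalling genes were mixed. Of 9 BMP response genes, Id1, Id3 and Id4, which encode inhibitors of basic helix-loop-helix factors, were lower than in before cells and the pathway inhibitor gene Smad7 was higher (1.35 ± 0.15, limma adjusted p = 0.00289). Id1 was higher than in after cells (1.98 ± 0.18), the 1 call among 7. The Id1 difference from before cells (-1.64 ± 0.36, limma adjusted p = 0.0286) was lost without RL e14 replicate 1 (0.141), RL e14 replicate 2 (0.112) or RL e13 replicate 2 (0.141), and was -2.19 without RL e13 replicate 1. The Id3 call was lost in 6 of 15 alternatives, among them those without RL e14 replicate 1 (limma adjusted p = 0.193), RL e14 replicate 2 (0.133) or RL e13 replicate 2 (0.189), and Id4 kept its call in all 15. Leaving out RL e13 replicate 1 gave 1 higher and 5 lower of 8 BMP response genes against before cells and 3 higher of 6 against after cells. Of 7 Wnt response genes, Nkd1 (2.01 ± 0.12, limma adjusted p = 0.000991) and Sp5 (2.31 ± 0.29) were higher and Znrf3 and Rspo1 lower than in before cells, and Sp5 was lower than in after cells (-0.66 ± 0.12), a call lost without RL e14 replicate 2 (limma adjusted p = 0.0909). The Znrf3 call was lost without RL e14 replicate 1 (limma adjusted p = 0.0659) or RL e13 replicate 2 (0.0632). Leaving out RL e13 replicate 1 gave 2 higher and 4 lower of 7 Wnt response genes against before cells and 2 higher and 1 lower of 5 against after cells. Of 8 hedgehog genes Gli3 was lower than in before cells, and Gli3 and Cdon were higher and Gas1 lower than in after cells. The Gli3 call against before cells was lost without RL e14 replicate 1 (limma adjusted p = 0.0934) or RL e13 replicate 2 (0.109), and that against after cells without RL e13 replicate 2 (0.0625). Cdon was lost without RL e14 replicate 2 (limma adjusted p = 0.0827) or RL e13 replicate 2 (0.111), and Gas1 without RL e14 replicate 1 (0.165), RL e14 replicate 2 (0.198) or RL e13 replicate 2 (0.184). Without RL e13 replicate 1 there were 2 lower of 8 hedgehog genes against before cells, and 2 higher and 2 lower of 9 against after cells. Of 6 genes of the SoxB and SoxC families and Sox9, 3 were lower (Sox9, Sox1 and Sox3) and Sox11 higher than in before cells, and Sox9 and Sox1 were higher and Sox4 lower than in after cells. Against before cells, Sox11 was lost without RL e14 replicate 1 (limma adjusted p = 0.0938) or RL e13 replicate 2 (0.0900), and Sox3 in each fit that left out a library other than RL e13 replicate 1. Against after cells, Sox1 was lost without RL e14 replicate 1 (limma adjusted p = 0.119), RL e14 replicate 2 (0.135) or RL e13 replicate 2 (0.0724), and Sox9 without RL e14 replicate 2 (0.0738) or RL e13 replicate 2 (0.0683). With RL e13 replicate 1 left out, 1 was higher and 4 lower of 7 than in before cells, and 4 higher and 1 lower of 6 than in after cells. Of 3 GABAergic lineage genes tested against before cells 3 were lower, among them Ptf1a and Kirrel2, and of 3 tested against after cells 2 were higher, among them Kirrel2, and Lhx1 was lower. Kirrel2 lost its call against before cells in 7 of 15 alternatives, among them those without RL e14 replicate 1 (limma adjusted p = 0.101) or RL e14 replicate 2 (0.0779), and kept that against after cells in all 14. The Lhx1 call was lost without RL e14 replicate 2 (limma adjusted p = 0.0856) or RL e13 replicate 2 (0.111). Among brush cell lineage genes Calb2 was lower than in before cells (3 tested) and Eomes lower than in after cells (2 tested), and among nuclear lineage genes Irx3 was lower than in before cells (4 tested). Immediate early genes, which can be induced by tissue dissociation, were lower than in before cells in 7 of 8 cases and higher than in after cells in 4 of 8, with medians of -0.81 and 0.57, and in 8 of 8 and 6 of 8 without RL e13 replicate 1. Fos stood at 427 ± 136 CPM against 868 ± 280 and 152 ± 59.6. Like the radial glia genes they were lower than before and higher than after cells where they passed, and their part in those differences was not tested.

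Cells with an intermediate value of 1 of the 2 genes were placed on either side of the transition cells to give 5 classes: before, low Atoh1 (267 cells), transition, low Sox2 (851 cells) and after. Dll1 averaged 11.7, 27.6, 82.7, 60.3 and 29.4 CPM over these classes, and Gadd45g 113, 239, 905, 693 and 425 CPM. In RL e13 replicate 1 both were higher in the low Sox2 class (139 and 862 CPM) than in transition cells (112 and 450). Ptn averaged 2870, 1885, 1107, 1752 and 2690 CPM, with its lowest mean in transition cells. Fabp7 fell in steps over the means, with 5638, 2233, 857, 411 and 184 CPM, and Hes5 with 626, 356, 169, 46.0 and 12.9 CPM. Insm1 averaged 8.75, 84.9, 336, 483 and 564 CPM and Barhl1 5.20, 79.1, 221, 360 and 456 CPM. Gap43 averaged 40.2, 101, 84.1, 384 and 972 CPM, so that its mean in transition cells was no higher than in the low Atoh1 class. These 5 classes are given as a description, with no test.

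**Figure D4:**
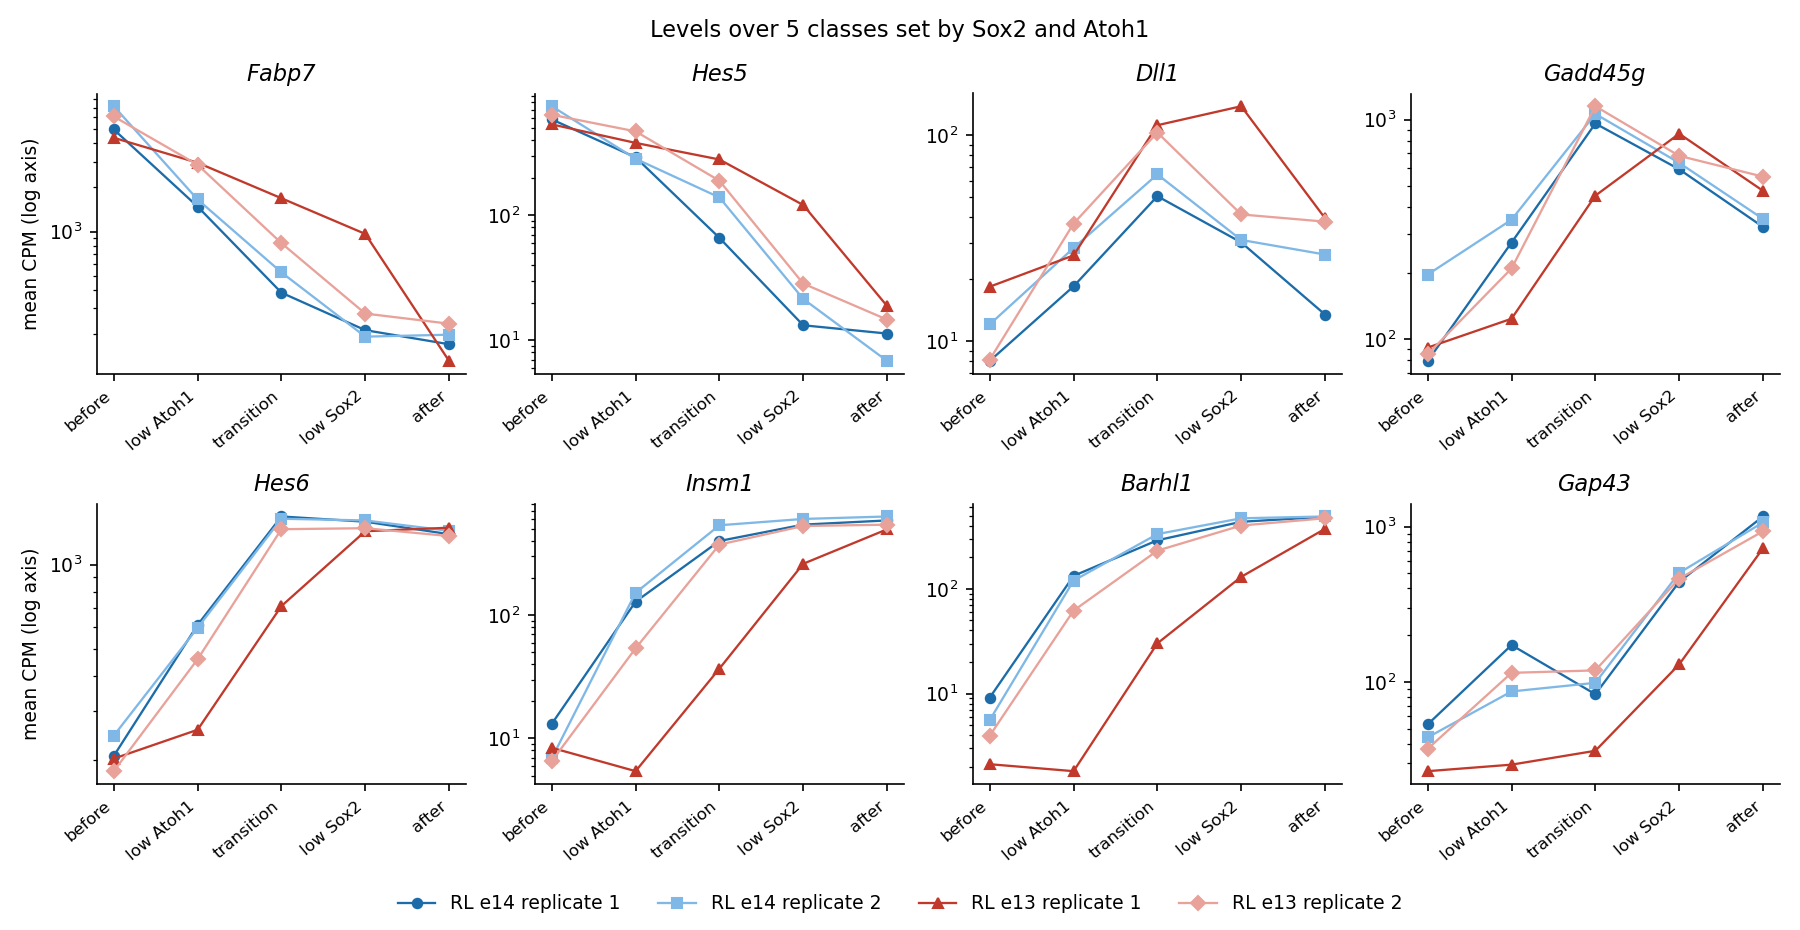
Mean CPM (y axis, log scale) of 8 genes over 5 classes set by Sox2 and Atoh1 (x axis), 1 line for each library. Fabp7 and Hes5 go down from left to right in their means, Insm1 and Barhl1 go up, later in RL e13 replicate 1 than in the others, and Dll1 and Gadd45g are highest in transition cells in 3 of 4 libraries.

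Pairs of genes were also counted within single cells. With each cell thinned to 8000 UMIs, Hes5 had a UMI in 77.5% of before, 35.2% of transition and 6.63% of after cells, and Insm1 in 4.56%, 59.3% and 95.5%. Unthinned, the shares were 85.8%, 46.5% and 12.5% for Hes5 and 7.35%, 63.7% and 98.7% for Insm1. RNA from outside a cell was not measured, and its part in these shares was not tested. The share of cells with both genes of a pair depends on the share with each, which differed between classes. A higher share with both is therefore not read as joint expression. Whether pairs were found together more or less often than the single shares alone would give was not tested. Both genes had a UMI in 9.40% of 383 thinned transition cells (6.87 to 12.7), against 3.39% of before cells (2.41 to 4.75) and 6.48% of after cells (4.84 to 8.61), and the intervals of transition and after cells overlap. By library, in the order RL e14 replicates 1 and 2 and RL e13 replicates 1 and 2, the share with both was 8.74%, 15.6%, 3.61% and 11.2% in transition cells and 5.80%, 4.55%, 13% (of 23 cells) and 7.28% in after cells, so that it was lower in transition cells in RL e13 replicate 1. Dll1 and Hes5 were found together in 14.9% of transition (11.7 to 18.8), 6.15% of before (4.79 to 7.87) and 1.66% of after cells (0.928 to 2.94). By library this share was 5.83%, 8.89%, 26.5% and 16.4% in transition cells, in the same order. Before cells had 4.41%, 4.44%, 9.09% and 4.89%. The intervals of transition and before cells overlap in both e14 libraries. Dll1 and Insm1 were found together in 17.0% of transition (13.5 to 21.1), 0.742% of before (0.360 to 1.52) and 12% of after cells (9.79 to 14.7). Here too the intervals of transition and after cells overlap. By library the share with Dll1 and Insm1 was 9.71%, 26.7%, 2.41% and 27.0% in transition cells, in the same order. After cells had 8.21%, 11.4%, 4.35% (of 23 cells) and 15.6%, so that RL e13 replicate 1 was lower in transition cells. Insm1 at all was found in 75.7%, 80%, 10.8% and 68.4% of transition cells. Unthinned, these pairs stood at 18.7%, 25.6% and 30.9% in transition cells, 5.84%, 9.37% and 1.31% in before cells and 12.4%, 4.42% and 21.7% in after cells. The shares pool cells of 4 libraries and their intervals cover counting error only.

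Transition cells were also split by which of Sox2 and Atoh1 was higher. Genes that follow either from cell to cell differ by this split, so the calls are a description of it. The 248 cells with more Atoh1 than Sox2 were compared with the other 143 within each library, and 8 genes were higher (0.0972%) and 5 lower (0.0608%), in all 0.158% of 8227 tested. Insm1 stood at 415 CPM on average in the Atoh1-leaning and at 161 CPM in the Sox2-leaning cells (1.54 ± 0.20, limma adjusted p = 0.0329), and Barhl1 at 271 and 114 CPM (1.48 ± 0.22, limma adjusted p = 0.0371). Ccnd2, Sp5, Igfbpl1, Hes6, Rhob and Ier5 were also higher. Gdf10 stood at 21.3 against 148 CPM (-2.72 ± 0.38, limma adjusted p = 0.0369), and Fos, Gucy1a3, Dhrs3 and Mt2 were also lower. All 13 differences had the same sign in 4 of 4 libraries. They were not stable: of 10 named genes 0 passed in all alternatives, and without RL e13 replicate 2 no gene passed (472 at an unadjusted p under 0.05). 

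Transition cells at e14 were compared with those at e13 by title, 2 libraries against 2, and 0 genes passed with limma (0.0% of 8214, 1010 at an unadjusted p under 0.05). In simulated data this comparison recovered 35% of changes of 1 on the log2 scale, so that many such changes would be missed. The e13 libraries differed from each other, as for Barhl1 and Insm1 above. Taking the age tag of RL e13 replicate 2 in place of its title, leaving RL e13 replicate 1 alone on the other side, 182 genes were higher and 111 lower, and without RL e13 replicate 2 there were 288 and 297. Without RL e13 replicate 1 there were 10 and 10. In these fits the single library is assumed to vary like the others, and age and that library cannot be told apart.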

How the data were processed

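Single-cell RNA libraries of mouse cerebellum had been made with 10x Chromium 3′ kits (v3 and v3.1, per the labels) and processed with Cell Ranger on mm10, per the submitters' processing notes. Filters on cells and any doublet removal: not given in the sources used here. As deposited, the table holds natural log values, which were found to be ln(1 + 10000 × UMI / total UMI): all 29540669 values above 0 gave whole UMI counts within 0.01 of a count. The library of each cell was taken from the deposited cell annotation.

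Each class in each library with at least 10 cells gave 1 profile of mean CPM. Profiles were tested as log2(CPM + 5) with limma 3.58.1 (R 4.3.3, trend), with the library as a block, a filter of a mean of 10 CPM, and Benjamini-Hochberg adjustment over all genes at 0.05. Sox2 and Atoh1 were left out of the tests. Genes above or below both neighbours passed both tests in the same direction. The test was checked on simulated data. Wilson intervals are at 95%. Tables were made with Python 3.11.15, numpy 2.4.6, pandas 2.3.3 and scipy 1.17.1.

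Named by rule were 17 fixed genes (Sox2, Atoh1, Wls, Olig3, Pax6, Barhl1, Eomes, Otx2, Hes5, Hes6, Dll1, Dll3, Notch1, Insm1, Mki67, Cdkn1c, Tubb3), the 8 highest and 8 lowest called genes against each neighbour with 1 direction in every library and at least 50 CPM in the higher class, the 10 largest above and below both neighbours with at least 20 CPM, the 5 highest and 5 lowest called elsewhere, and the leading called members of each list (4 at most). Other genes named in the text as members of a set or list were added after their values were seen, and a few genes are not reported here. The members and the 26 gene lists (269 genes) were chosen with earlier results of these data known. Alternatives were other thresholds, depth limits, scaling, pseudocount, filter and block, and leaving out each library in turn. Sequences are RefSeq promoter windows of GRCm38.p6, used for printed letters and motif counts. Median depth of the libraries was 15855 to 19970 UMIs per cell, with 3477 to 45722 in single cells.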

Additional observations from a re-analysis of the deposited data

Results flagged for a closer look

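Of 226 differences checked for 1 library far from the other 3 (Dixon's test for 4 values at its 95% critical value, which flags about 1 in 20 by chance) or for e14 and e13 moving apart, 30 were marked, and most were in RL e13 replicate 1, the library with few after cells. All values are log2 differences of transition cells from the class named.

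Against before cells, RL e13 replicate 1 stood apart in Pax6 with 1.11 (0.44 to 0.50 in the other 3 libraries), Jag1 with 1.21 (0.04 to 0.24) and Ebf3, a gene of early neurons, with 1.07 (3.07 to 3.36). Thsd7b was at 1.85 there (4.09 to 4.43) and Hsd11b2 at 0.82 (3.97 to 4.33). The smaller losses there were those of Nid1 at -1.29 (-3.80 to -3.45), Cd9 at -0.62 (-1.32 to -1.27) and Cdh11 at -0.72 (-2.23 to -2.06). In RL e14 replicate 2, Mki67 was at 1.04 (-0.55 to -0.31) and Tubb3 at -0.051 (0.30 to 0.35).

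Against after cells, of which RL e13 replicate 1 has 25, that library stood lowest in Barhl1 at -3.43 (-1.01 to -0.55 elsewhere), Insm1 at -3.58 (-0.55 to -0.23), Cbfa2t3 at -3.53 (-0.46 to 0.03) and Hes6 at -0.93 (0.08 to 0.21). The same held for Mab21l1 at -4.27 (-2.28 to -2.07), Neurod6 at -3.52 (-1.19 to -1.04), Uncx at -3.04 (-1.38 to -1.24), Ebf3 at -2.51 (-0.44 to -0.18) and Scrt1 at -2.45 (-1.53 to -1.37). It stood highest in Otx2 at 1.76 (-0.79 to -0.68), Notch1 at 2.79 (1.41 to 1.60) and Tjp1, a tight junction gene, at 1.07 (0.48 to 0.53). In RL e13 replicate 2, Stmn2 was at -2.54 (-3.44 to -3.39), Kcnq3 at 0.29 (0.89 to 0.92) and Col9a3 at -0.51 (-1.17 to -1.06). In RL e14 replicate 1, Cdh11 was at -0.83 (-0.39 to -0.32).

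In 4 cases both e14 libraries moved one way and both e13 libraries the other, a difference between ages that was not tested. Against before cells Kif11 averaged 0.38 at e14 and -0.52 at e13, 0.90 apart, and Gas1 0.13 and -0.54, 0.67 apart. Against after cells Thsd7b averaged 0.84 and -1.11, 1.95 apart, and Rab15 0.32 and -1.03, 1.34 apart.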

How the results depend on the processing

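Counts of calls moved when 1 library was left out. Against before cells they ran from 88 to 627 higher and 150 to 1003 lower, and against after cells from 92 to 662 and 127 to 519. Against the mean of both neighbours they ran from 1 to 354 and 15 to 613, and between Atoh1-leaning and Sox2-leaning cells from 0 to 42 and 0 to 48. Between e14 and e13 they ran from 0 to 288 and 0 to 297. Genes above both neighbours numbered 2 to 117 and below both 4 to 51. In each case against the neighbours the highest count was the one without RL e13 replicate 1, and leaving out any other library lowered it. The cause was not tested, beyond the values of that library given above.

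With the threshold at 0.5, the counts were 420 higher and 431 lower against after cells, 91 lower against the mean of both neighbours, 256 and 292 between leaning classes, and 23 below both neighbours. At this threshold transition cells made up 29.8% and 21.3% of RL e14 replicates 1 and 2 and 28.0% and 27.0% of RL e13 replicates 1 and 2. At 1.5 they made up 1.43%, 1.08%, 2.97% and 1.54%, which left 3 libraries with enough cells and no comparison of leaning classes. The counts were then 157 and 269 against before cells, 120 and 139 against after cells, 15 and 47 against the mean and 1 lower between e14 and e13. Without the library block they were 193 and 369, 114 and 153, 0 and 0 between leaning classes, and 3 above and 2 below both neighbours. In cells of 10000 to 25000 UMIs, 169 genes were higher than in after cells, 72 higher than the mean of both, 0 lower between leaning classes and 9 above both. With the rule applied to cells thinned to 8000 UMIs, 105 were higher than the mean, 41 higher and 57 lower between leaning classes, and transition cells made up 8.28% of RL e14 replicate 1 and 8.75% of RL e13 replicate 1. Without a filter on low values, with more genes tested, 8 were higher and 52 lower than the mean, 0 and 0 differed between leaning classes and 8 were above both. With a pseudocount of 1 CPM, 3 and 0 differed between leaning classes. With the age tag of RL e13 replicate 2 in place of its title, 182 and 111 genes differed between ages.

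Some single genes turned sign against after cells. Leaving out 1 library at a time, Hes6 ran from -0.23 to 0.14, Thsd7b from -0.50 to 0.56 and Mfap4 from -0.59 to 0.44, and the values above 0 are those without RL e13 replicate 1. At a threshold of 1.5, Top2a was at -0.97 and Nusap1 at -0.30. With the rule at 8000 UMIs, Top2a was at -0.36, Nusap1 at -0.40, Kif11 at -0.20 and Mki67 at -0.32. Over all named genes and alternatives 3206 values kept their side of the threshold, 495 lost the call and 86 gained it. Another 9 turned sign where either fit was called. A turn of sign with no call in either fit was counted among the 3206. Of named genes that were called, 44 of 97 kept the call in all alternatives against before cells, 36 of 86 against after cells, 1 of 10 against the mean and 0 of 10 between leaning classes. A turn of sign was not counted as a loss here. There were 6 such turns among the called genes against after cells, so that 36 may be too high. The fits without barcodes shared by libraries, and those that took before cells with Wls for the genes above or below both neighbours, were chosen after seeing the data. They gave 13 and 14 genes above both and 12 and 8 below both. No paired analysis was possible because RL e14 replicate 1 carries no number in its title and is called 1 here only as a name, so that e14 and e13 share fewer than 2 labelled replicate numbers. Tests between classes already hold the library as a block.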
